A study of Homo sapiens with 12 samples.

Results

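The comparison described here is a difference of differences: the change in RNA between MDA-MB-231 cells labelled MEK5DD and their parental cells, minus the change between Hs-578T cells labelled MEK5DD and their parental cells. It contrasts 8 of the 12 libraries of the series, 2 for each of 4 groups. These are MDA-MB-231 parental (passages 29 and 30), MDA-MB-231-MEK5DD (passages 10 and 11), Hs-578T parental (passages 83 and 84) and Hs-578T-MEK5DD (passages 8 and 9). The other 4 libraries come from cells of both lines labelled ERK5-ko, a CRISPR/Cas9 knockout of ERK5. Their levels are given as a second engineered derivative of each line, and they also entered the gene filter and the estimate of spread. Both lines are cultured human triple-negative breast cancer cells, without estrogen receptor, progesterone receptor or HER2 amplification, and both are mesenchymal in shape. As background, both lines carry activating mutations in the RAS pathway.

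MEK5, the product of MAP2K5, is the kinase that phosphorylates and activates ERK5, the product of MAPK7. ERK5 carries a long C-terminal extension that works as a transcriptional activator, and its best known targets are the MEF2 transcription factors, through which KLF2 and KLF4 are induced, together with immediate early genes such as FOSL1 and JUN. MEK5DD is a form of MEK5 held in the active state by acidic residues in place of its phosphorylation sites. The question of the comparison is which genes responded unequally in the lines, and how that stands beside the amount of MAP2K5 RNA that each construct line holds.

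Several limits belong to the groups themselves. The controls are parental cells and not cells carrying an empty vector, and the sources used here do not say how the MEK5DD cells were made, with which promoter, or whether they are 1 clone or a pool. Passage number separates parental from MEK5DD cells in both lines, so passage and construct cannot be told apart. The labels give consecutive passages and not separate cultures as replicates, so p-values measure only the spread between these samples, which may be technical.

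The 8 libraries held between 20248162 and 27791195 reads, recovered from the deposited RPKM values (reads per kilobase of gene model, scaled to library size). Replicates lay closer together in MDA-MB-231 (chi-square per degree of freedom of 3.71 for parental and 2.81 for MEK5DD) than in Hs-578T (30.7 and 41.9). The fit took a single spread per gene over all 12 libraries, so the standard error of a gene is the same in both lines. Counts of calls in the lines rest on that shared spread. Line identity was checked with genes that stood at 10 RPKM or more in both parental libraries of a line and at 0.1 or less in both of the other. Of 52 such MDA-MB-231 genes, 48 remained at 1 RPKM or more in both MDA-MB-231-MEK5DD libraries and all 52 were at 0.5 or less in both Hs-578T-MEK5DD libraries. All 120 such Hs-578T genes remained at 1 RPKM or more in Hs-578T-MEK5DD, and 116 were at 0.5 or less in MDA-MB-231-MEK5DD. Among markers of other cell types, the immune list had a summed level of 64.7 to 70.9 RPKM in MDA-MB-231 parental and 107 to 109 in MDA-MB-231-MEK5DD libraries, with 39.5 to 45.1 and 43.1 to 54.3 in the Hs-578T libraries, and 2 of its 5 members reached 0.5 RPKM in both libraries of a group. CD3E, which defines T cells, reached at most 0.0247 RPKM, whereas CD68, a lysosomal protein, had 62.5 and 69.0 RPKM in MDA-MB-231 parental and 108 and 107 in MEK5DD libraries. Summed endothelial markers lay between 2.32 and 6.03 RPKM, adipocyte markers between 0.0216 and 3.41 and hormone receptor markers between 5.24 and 6.88, with PGR at 0 in MDA-MB-231 parental and ADIPOQ at 0 in both parental lines. The part of other cell types in the results was not tested.

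MAP2K5 RNA differed far more between MDA-MB-231-MEK5DD and its parent than between Hs-578T-MEK5DD and its parent. MDA-MB-231 parental libraries held 12.9 and 13.6 RPKM of MAP2K5 and the MEK5DD libraries 188 and 184 RPKM, a 14.1-fold higher mean. Hs-578T parental libraries held 14.6 and 16.9 RPKM and the MEK5DD libraries 21.3 and 23.8 RPKM, a 1.43-fold higher mean. Both MDA-MB-231-MEK5DD libraries lay above all 10 others. The MEK5DD libraries of each line lay above its parental ones, as they also did for MAPK7, which was called in neither line. On the log2(RPKM + 0.5) scale, which understates the change of low genes, the change was 3.77 (standard error 0.10) in MDA-MB-231, against 0.50 (standard error 0.10) in Hs-578T, where the adjusted p was 0.00492 and the fold stayed under 1.5. The difference between lines was 3.26 (standard error 0.14, adjusted p = 4.84e-08). RPKM over the gene model does not separate RNA of a construct from that of the native gene, and a construct lacking the untranslated regions would be underestimated by it. The ERK5-ko libraries held 15.6 and 14.8 RPKM of MAP2K5 in MDA-MB-231 and 12.5 and 13.8 RPKM in Hs-578T.

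**Figure D1:**
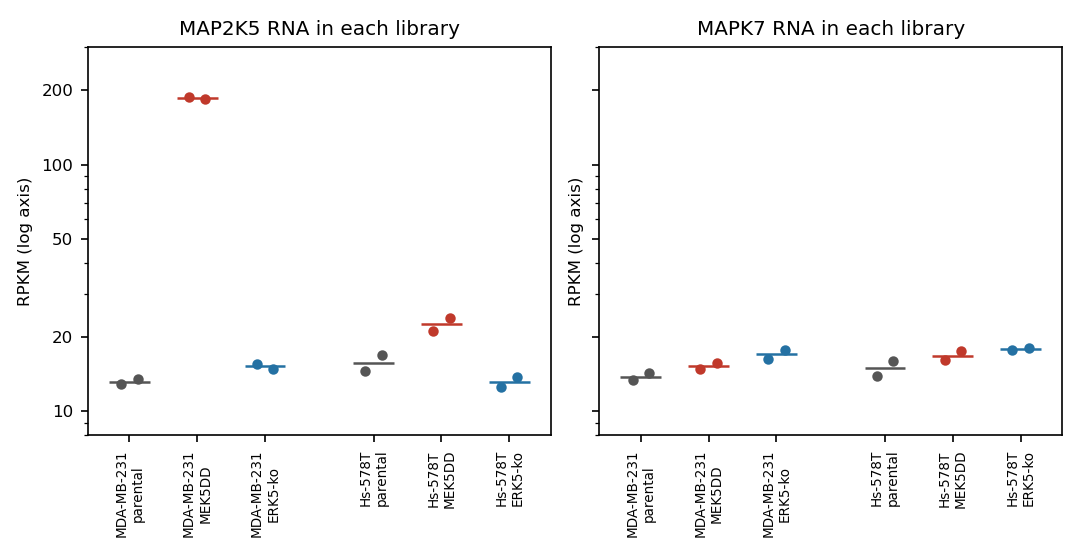
RPKM of MAP2K5 (left) and MAPK7 (right) in all 12 libraries on a shared log axis, with 1 point per library and a bar at the mean of each group of 2. MAP2K5 stands at 184 and 188 RPKM in MDA-MB-231-MEK5DD and at 12.5 to 23.8 RPKM in the other libraries, while MAPK7 lies between 13.3 and 18.1 RPKM throughout.

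MAPK7, the gene of ERK5, was called in neither line. Its RPKM was 13.3 and 14.3 in MDA-MB-231 parental, 14.8 and 15.8 in MDA-MB-231-MEK5DD, 13.97 and 15.98 in Hs-578T parental and 16.1 and 17.5 in Hs-578T-MEK5DD. The difference between lines was -0.02 (standard error 0.14, adjusted p = 0.909). The ERK5-ko libraries were not lower, with 16.3 and 17.8 RPKM in MDA-MB-231 and 17.8 and 18.1 RPKM in Hs-578T, so MAPK7 RNA does not show the knockout.

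Across 13737 protein-coding genes with at least 0.5 RPKM in at least 2 libraries, 806 (5.87%) had a higher MEK5DD change in MDA-MB-231 than in Hs-578T and 947 (6.89%) a lower one, 12.8% together. A difference was called at a limma adjusted p under 0.05 (Benjamini-Hochberg over all genes tested) and an absolute log2 difference of at least 1, and adjusted p-values throughout come from that fit. Within MDA-MB-231, MEK5DD cells exceeded parental cells in 1049 genes (7.64%) and fell below them in 867 (6.31%), at a fold above 1.5 or below 0.5. Within Hs-578T, 398 were called higher (2.9%) and 204 lower (1.49%), 4.38% together. The excess of higher calls rests on these unequal folds. At the adjusted p alone MDA-MB-231 had 2410 rising and 3263 falling genes, while Hs-578T had 884 rising and 2329 falling ones. With the folds exchanged, 372 genes rose in MDA-MB-231 cells, against 129 in Hs-578T cells. Called genes were 3.18 times as many in the line with more MAP2K5 RNA, or 1.77 times at the adjusted p alone, and the log2 changes of all genes tested had an SD of 0.65 in MDA-MB-231, against 0.37 in Hs-578T. With 1 construct line in each, the dose of MAP2K5 RNA and the cell line cannot be told apart. Quantile normalization moved the split of calls to 1333 higher and 695 lower for MDA-MB-231, to 586 and 168 for Hs-578T, and left the difference between lines at 803 and 944. In bulk RNA, a lower level per cell and fewer cells with that level cannot be told apart.

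**Figure D2:**
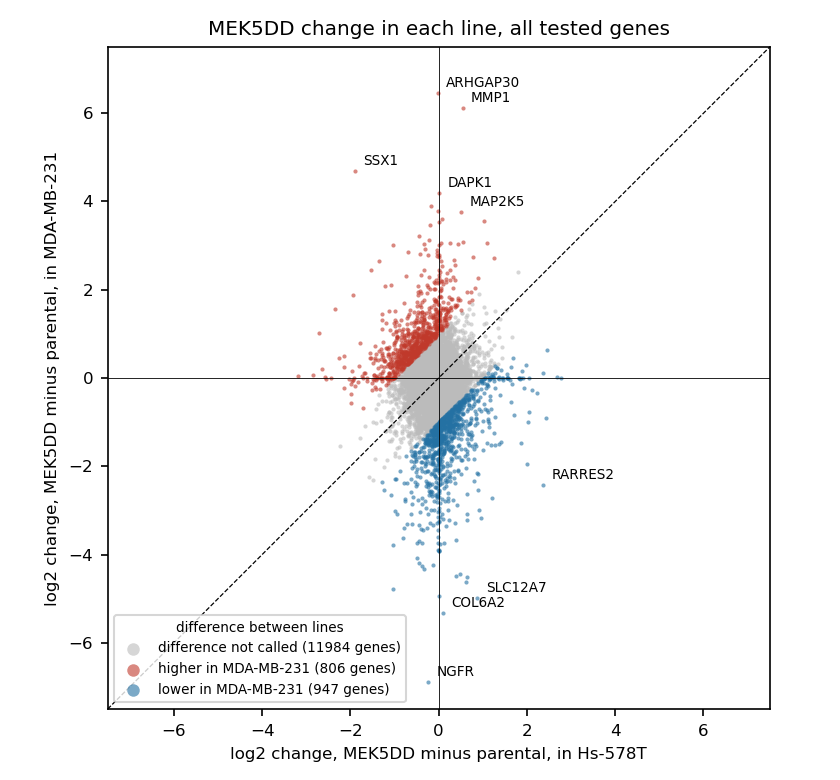
Log2 change of each of the 13737 genes in Hs-578T (horizontal axis) and MDA-MB-231 (vertical axis), MEK5DD minus parental on log2(RPKM + 0.5), with the dashed line marking an equal change. The 806 genes with a called higher difference (red) and the 947 with a called lower one (blue) spread mainly along the vertical axis. By the rule of the call they lie off the dashed line.

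The unequal genes were mostly called in MDA-MB-231 and not in Hs-578T. Of the 806 higher differences, 492 were called higher in MDA-MB-231 only, 117 were called lower in Hs-578T only, 28 were called in opposite directions, 10 were called higher in both lines, and 159 were called in neither line taken alone. Among the 947 lower differences, 612 were called lower in MDA-MB-231 only, 125 higher in Hs-578T only, 54 in opposite directions, 5 lower in both lines, 1 higher in both, and 150 in neither. The change in MDA-MB-231 was the larger of the pair in 61.9% of the higher and 85.6% of the lower differences. The same share over all genes tested was not computed. Changes over all genes were wider in MDA-MB-231 (SD 0.65, against 0.37 for Hs-578T), so these shares alone do not set the unequal genes apart. Some of the genes are hardly transcribed in Hs-578T. There, 12.5% of the higher and 20.2% of the lower differences were under 0.5 RPKM in all 4 libraries, against 6.41% of all genes tested. In MDA-MB-231 the same measure was 9.55% and 6.02%, against 7.35% of all genes.

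Genes called in both lines were a minority of each list, yet each overlap below exceeded the other line's share of all genes. Over all genes, MDA-MB-231 had 7.64% called higher and 6.31% lower, while Hs-578T had 2.9% and 1.49%. Whether the overlaps exceed those of unrelated lists was not tested. Of 173 genes called in both, 65 were higher in both (6.2% of the MDA-MB-231 list and 16.3% of the Hs-578T list), 26 were lower in both (3% and 12.7%), 28 rose in MDA-MB-231 while falling in Hs-578T (2.67% and 13.7%) and 54 did the reverse (6.23% and 13.6%).

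The 10 largest differences each way were taken from called genes with a mean of at least 1 RPKM over the 8 libraries. Their MEK5DD and parental libraries were also required not to overlap in the line with the larger change, so that separation follows from the choice. The largest higher differences so chosen were mostly genes that were almost silent in MDA-MB-231 parental cells and transcribed in the MEK5DD cells. SSX1, a cancer-testis antigen of a family of near-identical X-linked genes between which reads may be split, had 0.126 and 0.279 RPKM in MDA-MB-231 parental and 17.98 and 17.11 RPKM in MEK5DD, with 14.3 and 14.7 RPKM in Hs-578T parental and 3.68 and 3.36 RPKM in Hs-578T-MEK5DD. It rose in one line and fell in the other, with a difference of 6.59 (standard error 0.19, adjusted p = 2.01e-09). ARHGAP30, a GTPase-activating protein of leukocytes, stood at 0.0284 and 0.0885 RPKM in MDA-MB-231 parental and 47.7 and 48.8 RPKM in MEK5DD, and reached at most 0.0339 RPKM in Hs-578T. Its difference of 6.47 (standard error 0.14, adjusted p = 4.63e-10) is therefore that of MDA-MB-231. MMP1, interstitial collagenase, rose 94.7-fold in MDA-MB-231 from 1.47 and 1.23 to 132 and 124 RPKM. In Hs-578T it was 0.156 and 0.246 RPKM in parental and 0.731 and 0.348 RPKM in MEK5DD libraries, and the difference was 5.57 (standard error 0.23, adjusted p = 2.76e-08). In the ERK5-ko cells of MDA-MB-231, SSX1 was at 0.103 and 0, ARHGAP30 at 0 and MMP1 at 1.2 and 1.41 RPKM, close to the parental cells.

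The other genes among the 10 largest higher differences were also low in the MDA-MB-231 parent, with 1 exception, ARHGDIB. DAPK1, a death-associated kinase, rose from 0.165 and 0.309 to 13.1 and 12.5 RPKM in MDA-MB-231 and was under 0.1 RPKM in Hs-578T (difference 4.17). CNTN1, a neural adhesion molecule, rose from 0.337 and 0.382 to 13.1 and 11.5 RPKM, with at most 0.0892 RPKM in Hs-578T (difference 4.07). The rest rose in MDA-MB-231 while they fell in Hs-578T. TMEM108 went from 0.0466 and 0.083 to 3.21 and 2.89 RPKM in MDA-MB-231 and from 2.3 and 2.31 to 0.569 and 0.618 RPKM in Hs-578T (difference 4.01). HBE1, embryonic beta globin, was at least 9.18-fold higher in MDA-MB-231-MEK5DD, at 1.19 and 1.55 RPKM, and 5.48-fold lower in Hs-578T, from 18.3 and 14.6 to 4.11 and 1.9 RPKM (difference 3.92), and its gene model overlaps HBG2 and other listed genes on the same strand. ARHGDIB, an inhibitor of small GTPase cycling, rose from 95.0 and 102 to 364 and 364 RPKM in MDA-MB-231 and fell from 7.62 and 7.38 to 1.71 and 1.49 RPKM in Hs-578T (difference 3.81). NCALD, a neuronal calcium sensor, differed by 3.98 and LAMA4 by 4.06.

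The largest lower differences were genes of the MDA-MB-231 parent that were nearly lost from its MEK5DD cells. NGFR, the low-affinity neurotrophin receptor, fell 310-fold from 95.6 and 95.3 to 0.252 and 0.364 RPKM in MDA-MB-231 and was at most 0.265 RPKM in Hs-578T, a difference of -6.66 (standard error 0.18, adjusted p = 1.96e-09). The MDA-MB-231 ERK5-ko libraries were also low in NGFR, at 6.42 and 6.91 RPKM. SLC12A7, a potassium-chloride cotransporter, fell from 42.1 and 42.6 to 0.863 and 0.839 RPKM in MDA-MB-231 and rose from 1.4 and 1.91 to 3.26 and 3.62 RPKM in Hs-578T, a difference of -5.86 (standard error 0.18, adjusted p = 3.44e-09). LBH, a transcriptional cofactor, fell from 58.4 and 61.2 to 1.98 and 1.91 RPKM in MDA-MB-231 and rose from 63.0 and 58.1 to 84.3 and 104 RPKM in Hs-578T (difference -5.25). ULK2, an autophagy kinase, fell from 24.8 and 24.9 to 0.577 and 0.637 RPKM in MDA-MB-231 while Hs-578T rose from 15.9 and 18.2 to 26.0 and 27.8 RPKM (difference -5.17). These 3 genes were not low in the ERK5-ko cells of MDA-MB-231, which held 44.0 and 49.1 RPKM of SLC12A7, 66.2 and 65.3 of LBH and 41.5 and 36.8 of ULK2.

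NUP210, a nuclear pore glycoprotein, fell 107-fold in MDA-MB-231 and was at most 0.146 RPKM in the parental and MEK5DD libraries of Hs-578T (difference -4.95). CEMIP, a hyaluronan-degrading protein, fell 27.2-fold in MDA-MB-231 and stood at a high level in Hs-578T, with 181 and 275 RPKM in parental and 285 and 344 RPKM in MEK5DD libraries (difference -4.94). TRIM29, a basal epithelial protein, fell 36.6-fold in MDA-MB-231 (difference -4.88), and KRT81, a hair keratin whose model overlaps that of KRT86, fell 19.2-fold and rose 2.53-fold in Hs-578T (difference -4.13). RARRES2, the precursor of the chemoattractant chemerin, changed by almost the same amount in opposite directions, from 33.0 and 30.7 to 5.4 and 5.62 RPKM in MDA-MB-231 and from 1.79 and 2.06 to 16.5 and 8.64 RPKM in Hs-578T (difference -4.79, standard error 0.30, adjusted p = 6.5e-07). In the ERK5-ko libraries RARRES2 was higher than in the parental ones of either line, with 67.1 and 75.2 RPKM in MDA-MB-231 and 7.79 and 8.59 RPKM in Hs-578T.

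Other genes called in opposite directions were PSG5, ANGPTL2 and MATN2, which all fell in MDA-MB-231 while they rose in Hs-578T. PSG5, a pregnancy-specific glycoprotein of a family of similar genes, was at 1.57 and 1.9 RPKM in MDA-MB-231 parental and 0.101 and 0.0584 in MEK5DD, against 10.04 and 11.03 and then 54.1 and 35.5 RPKM in Hs-578T (difference -3.95). ANGPTL2, an angiopoietin-like secreted protein, fell from 18.2 and 17.7 to 5.82 and 6.47 RPKM in MDA-MB-231 and rose from 0.483 and 0.673 to 4.16 and 2.8 RPKM in Hs-578T (difference -3.34). MATN2, a matrix filament protein, fell 2.81-fold and rose 2.76-fold (difference -2.86), and the ribosomal protein gene RPL30 overlaps it on the opposite strand.

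Some genes were called in the same direction in both lines. TNC, the matrix protein tenascin C, was called higher in both lines, from 18.3 and 20.6 to 105 and 105 RPKM in MDA-MB-231 and from 2.3 and 3.56 to 10.5 and 11.9 RPKM in Hs-578T, and its difference of 0.61 was not called. MORC4, a chromatin ATPase, was called lower in both, from 131 and 135 to 26.9 and 25.5 RPKM and from 2.17 and 1.83 to 0.391 and 0.386 RPKM, 5.06-fold and 5.15-fold. IL16 and XAGE2 were called higher in both lines and SLAMF7 and GPRC5C lower in both, with differences of 0.02, -0.06, 0.69 and -0.66, none of them called. The sign of the differences of IL16, XAGE2 and SLAMF7 turned with the pseudocount, the scaling or the omission of a library.

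In the promoters of the genes with called differences, the 250 bases before the start site were searched for motifs of AP-1 and MEF2. AP-1, the dimers of FOS and JUN proteins, was searched with a loose form of its core, TGANTCA, in which any middle base counts. The MEF2 motif was CTA, then any 4 bases, then TAG. Both motifs read the same on either strand and do not overlap each other. RefSeq promoters (GRCh38.p14, the 250 bases before the start) were given for 10308 of the 13737 genes, of which 4.04% held an AP-1 match and 1.75% a MEF2 match. The shares were 5.68% and 1.55% of 581 genes with a higher difference, and 5.76% and 2.36% of 677 genes with a lower one. None of the 14 genes with a promoter entry among the 20 largest differences held either motif, as SSX1 (chrX:48255142-48255391, plus strand) and COL6A2 (chr21:46097862-46098111, plus strand) show. They are the most different genes with an entry of the higher side and of the matrix genes. CLDN4 (chr7:73830746-73830995, plus strand) and F3 (chr1:94541760-94542009, minus strand), which had lower differences, are printed because each held 2 matches to TGANTCA, set in capitals.
SSX1: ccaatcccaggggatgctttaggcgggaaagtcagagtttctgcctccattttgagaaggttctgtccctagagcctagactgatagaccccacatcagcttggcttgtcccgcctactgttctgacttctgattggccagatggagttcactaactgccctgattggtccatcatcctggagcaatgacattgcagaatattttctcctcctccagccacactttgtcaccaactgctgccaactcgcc
COL6A2: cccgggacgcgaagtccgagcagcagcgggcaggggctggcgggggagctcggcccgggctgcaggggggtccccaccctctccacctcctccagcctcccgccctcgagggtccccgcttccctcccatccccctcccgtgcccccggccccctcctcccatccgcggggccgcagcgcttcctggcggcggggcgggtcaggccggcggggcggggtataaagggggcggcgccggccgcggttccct
CLDN4: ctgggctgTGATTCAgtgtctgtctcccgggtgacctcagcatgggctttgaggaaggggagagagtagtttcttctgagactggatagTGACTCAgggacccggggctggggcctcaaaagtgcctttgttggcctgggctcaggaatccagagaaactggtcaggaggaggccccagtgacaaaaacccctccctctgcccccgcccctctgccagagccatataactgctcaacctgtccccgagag
F3: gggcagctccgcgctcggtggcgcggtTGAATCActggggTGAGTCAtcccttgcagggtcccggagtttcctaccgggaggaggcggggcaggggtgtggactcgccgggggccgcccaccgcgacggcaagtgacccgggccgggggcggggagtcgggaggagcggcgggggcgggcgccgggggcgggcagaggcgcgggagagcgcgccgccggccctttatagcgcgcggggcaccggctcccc
The matches of CLDN4 begin 242 and 161 bases before the start and those of F3 223 and 210 bases before it. A match describes these letters and no site of binding.

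Genes of the ERK5 cascade itself showed little difference between lines apart from MAP2K5. The 12 genes of the cascade, its MEF2 factors and its KLF and NR4A1 targets had 1 called higher difference, MAP2K5, and 0 called lower, at a median of -0.06 beside 0.05 for all genes tested. At the adjusted p alone 2 were higher and 2 lower, beside 21.3% and 18.2% of all genes, and 5 of the 12 had an unadjusted p under 0.05. Every gene that passed the adjusted p also passed the unadjusted one, so at least these shares of all genes did. Counts of called differences in this and the later lists stand beside 5.87% higher and 6.89% lower over all genes. KLF4, an ERK5 target in endothelium, was 16.5 and 16.4 RPKM in MDA-MB-231 parental and 19.0 and 21.1 in MEK5DD, and 18.2 and 17.2 and then 10.8 and 13.4 RPKM in Hs-578T, a difference of 0.81 (adjusted p = 0.00186). MEF2A, a MEF2 factor, went from 25.2 and 25.5 to 16.3 and 17.2 RPKM in MDA-MB-231 and from 24.8 and 32.5 to 29.6 and 39.9 RPKM in Hs-578T (difference -0.86, adjusted p = 0.00642). KLF2, the other endothelial target, was 6.44 and 5.95 and then 7.71 and 7.3 RPKM in MDA-MB-231, and 3.09 and 3.37 and then 2.07 and 3.86 RPKM in Hs-578T, where the groups overlapped (difference 0.41, adjusted p = 0.292). Without the second Hs-578T parental or the first Hs-578T-MEK5DD library 1 lower difference was called.

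Immediate early factors varied widely between the Hs-578T replicates. FOS, a partner in AP-1, was at 110 and 10.1 RPKM in the 2 Hs-578T parental libraries and at 35.5 and 55.9 RPKM in the MEK5DD libraries, against 17.6 and 12.8 and then 38.0 and 17.9 RPKM in MDA-MB-231. Its difference of 0.38 had a standard error of 1.17. EGR1 likewise had 25.2 and 10.3 RPKM in Hs-578T parental and 9.15 and 20.7 RPKM in MEK5DD libraries (difference 1.25, adjusted p = 0.0911). Of 14 AP-1 and early genes 0 were called higher by limma and 1 lower, beside 5.87% and 6.89% of all genes. At the adjusted p alone 1 was higher and 3 lower, beside 21.3% and 18.2% of all genes, and 5 had an unadjusted p under 0.05. The median of 0.15 was -0.08 without the first Hs-578T parental and -0.05 without the first Hs-578T-MEK5DD library. The lower one was EGR2, an early growth response factor, which rose 3.31-fold in Hs-578T from 1.35 and 1.36 to 3.91 and 5.07 RPKM and was under 0.2 RPKM in the MDA-MB-231 libraries (difference -1.23, and -0.79, not called, with limma voom on reads). FOSL1, the AP-1 member most abundant in MDA-MB-231, was at 311 and 329 RPKM in parental and 426 and 449 RPKM in MEK5DD cells, and at 48.6 and 48.5 and then 42.9 and 46.3 RPKM in Hs-578T (difference 0.57, adjusted p = 0.00443, not called). Without the second Hs-578T parental library 3 of these genes were called higher and without the second Hs-578T-MEK5DD library 1, and without the first Hs-578T-MEK5DD library 2 were lower.

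Genes that report ERK1/2 activity through feedback differed in one direction more often. Of 15, 5 had a lower difference and 1 had a higher one, beside 6.89% and 5.87% of all genes, and the median difference was -0.80. Within MDA-MB-231 1 was called higher and 0 lower, beside 7.64% and 6.31% of all genes. Within Hs-578T 6 were called higher and 0 lower, beside 2.9% and 1.49%, by a rule that asks for a larger fold of lower calls. DUSP4 and SPRY1, with log2 changes of -0.70 and -0.97 in MDA-MB-231 (adjusted p = 0.000132 and 8.07e-05), passed the adjusted p and not that fold. DUSP6, the phosphatase of cytoplasmic ERK1/2, stayed at 97.0 and 97.2 and then 92.3 and 92.4 RPKM in MDA-MB-231 and rose from 6.75 and 4.44 to 12.8 and 14.9 RPKM in Hs-578T (difference -1.33, standard error 0.21, adjusted p = 0.000501). DUSP4 went from 77.9 and 78.9 to 47.4 and 48.8 RPKM in MDA-MB-231 and from 1.01 and 0.955 to 1.7 and 2 RPKM in Hs-578T (difference -1.36). DUSP5 differed by -1.23, with 79.3 and 77.7 and then 57.0 and 57.7 RPKM in MDA-MB-231 and 2.16 and 2.46 and then 4.08 and 4.6 RPKM in Hs-578T. SPRY1 differed by -1.27 and SPRED1 by -1.01, both inhibitors of the RAS pathway, and CCND1, cyclin D1, had 689 and 690 and then 628 and 612 RPKM in MDA-MB-231 and 130 and 152 and then 240 and 259 RPKM in Hs-578T, a difference of -0.98 that missed the size asked for. The exception was SPRED3, with a difference of 1.14, which was not called without the second Hs-578T parental library. With the ERK5-ko libraries in place of the parental ones DUSP4, DUSP6 and DUSP5 differed by -0.13, -0.30 and -0.44, not called.

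Of 24 collagen genes tested, 11 had a lower difference and 2 a higher one, with a median of -0.84 on the log2 scale, and 8 were called lower within MDA-MB-231 (6.31% of all genes were) and 1 within Hs-578T (1.49% of all genes). COL6A1 and COL6A2, neighbours on chromosome 21 that encode chains of the same collagen VI molecule, had the lowest differences. COL6A2 went from 54.1 and 54.5 to 0.911 and 0.808 RPKM in MDA-MB-231, 63.2-fold lower, and was at 1184 and 1377 and then 1254 and 1503 RPKM in Hs-578T, where the groups overlapped (difference -5.44, standard error 0.16, adjusted p = 3.2e-09). COL6A1 went from 116 and 122 to 8.41 and 8.43 RPKM in MDA-MB-231 and was at 1374 and 1770 and then 1410 and 1714 RPKM in Hs-578T (difference -3.74). In the ERK5-ko libraries both stayed near the parental level, at 59.7 and 60.6 RPKM for COL6A2 and 113 and 112 for COL6A1 in MDA-MB-231. COL1A2, a chain of fibrillar collagen I, was low in MDA-MB-231, at 6.81 and 6.8 RPKM in parental and 0.116 and 1.11 in MEK5DD, and very high in Hs-578T, at 4496 and 5016 and then 6011 and 6770 RPKM (difference -3.30).

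COL7A1, the anchoring fibril collagen, fell 3.18-fold in MDA-MB-231 and rose 1.72-fold in Hs-578T (difference -2.41). COL16A1, COL5A1 and COL18A1 differed by -2.13, -2.1 and -1.88, COL15A1 by -1.78, and COL1A1, COL8A2 and COL4A5 by -1.37, -1.36 and -1.16. COL8A1, a short-chain collagen, ran the other way, from 67.9 and 69.1 to 180 and 176 RPKM in MDA-MB-231 with 106 and 132 and then 133 and 147 RPKM in Hs-578T (difference 1.13). COL5A3 was listed at 0 in the 4 MDA-MB-231 libraries and fell in Hs-578T from 71.9 and 80.7 to 29.1 and 47.9 RPKM (difference 1.02). Without the second Hs-578T parental library 0 collagens had a higher difference, and without the first Hs-578T-MEK5DD library 1 had.

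Matrix glycoproteins and crosslinking enzymes were divided, with 7 of 21 lower and 2 higher and a median of -0.16. The median was above 0 with a pseudocount of 0.1 (0.08), with reads in place of RPKM (0.40) and without the first Hs-578T-MEK5DD library (0.08). Within MDA-MB-231 7 were called higher and 7 lower, beside 7.64% and 6.31% of all genes. Within Hs-578T 3 were called higher and 0 lower, beside 2.9% and 1.49%. LOXL4, a collagen crosslinker, fell 10.1-fold in MDA-MB-231 from 33.0 and 33.4 to 3.35 and 3.24 RPKM and was at most 0.012 RPKM in Hs-578T (difference -3.13). THBS2, a matricellular protein, was at least 42.3-fold lower in MDA-MB-231-MEK5DD than the 2.11 and 2.28 RPKM of the parental cells and was at 1.7 and 2.73 and then 2.49 and 2.56 RPKM in Hs-578T (difference -2.51). EFEMP2, needed for elastic fibres, went from 4.3 and 4.87 to 1.25 and 1.09 RPKM in MDA-MB-231 and was at 132 and 119 and then 149 and 139 RPKM in Hs-578T (difference -1.81). LUM, the proteoglycan lumican, differed by -1.28 from under 0.75 RPKM in MDA-MB-231, and without the first Hs-578T-MEK5DD library by -0.95 and with a pseudocount of 1 by -0.88, neither of them called. LOXL1 and LOXL2 differed by -1.20 and -1.04 and HSPG2 by -1.13. The higher ones were FBLN1 and TGFBI, each at 1.06, and TGFBI stood at 82.2 and 88.5 and then 168 and 170 RPKM in MDA-MB-231 against 2537 and 2602 and then 2260 and 2622 RPKM in Hs-578T. Leaving out the first parental or the second MEK5DD library of MDA-MB-231 left 1 higher call, and leaving out the first Hs-578T-MEK5DD library left 0.

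Laminins, the chains of basement membrane, were called in opposite directions by chain, 2 of 10 each way, at a median of -0.49. Over all genes the shares were 5.87% higher and 6.89% lower. LAMA4, the alpha chain of vessels and mesenchyme, rose from 0.917 and 0.935 to 11.9 and 10.2 RPKM in MDA-MB-231 and fell from 10.7 and 16.4 to 5.24 and 7.28 RPKM in Hs-578T (difference 4.06, standard error 0.27, adjusted p = 8.83e-07). LAMA5, the alpha chain of mature epithelium, fell from 127 and 125 to 19.5 and 21.1 RPKM in MDA-MB-231 and overlapped between groups in Hs-578T, at 87.4 and 153 and then 128 and 140 RPKM (difference -2.82). LAMB3, a beta chain of epithelial laminin, had 162 and 174 and then 224 and 231 RPKM in MDA-MB-231 and 16.6 and 16.9 and then 7.07 and 9.73 RPKM in Hs-578T (difference 1.41). Of 17 integrins 1 was called, ITGA2, a collagen receptor, at -1.12, which is near the share of 6.89% lower over all genes. Without the first Hs-578T parental library ITGA2 was at -0.90, under the size asked for. Of the 17, 13 had a negative difference and the median was -0.34. Without the second MDA-MB-231-MEK5DD library 1 integrin was called higher.

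Proteases and their inhibitors held the highest member of the matrix lists, MMP1, with 4 of 19 called higher and 4 lower at a median of -0.55. MMP3, stromelysin, which is also on chromosome 11, rose from 0.0851 and 0.114 to 2.14 and 2.28 RPKM in MDA-MB-231 (difference 2.0), and MMP16, a membrane-bound protease, from 0.456 and 0.466 to 2.67 and 2.27 RPKM (difference 2.1). SERPINE2, an inhibitor of thrombin and urokinase, rose 7.78-fold in MDA-MB-231 from 4.2 and 5.3 to 35.2 and 38.7 RPKM and was at 211 and 214 and then 206 and 206 RPKM in Hs-578T (difference 2.89). TIMP3, an inhibitor bound to matrix, fell 4.55-fold in MDA-MB-231 and had 199 and 237 and then 306 and 312 RPKM in Hs-578T (difference -2.67). PLAT and MMP24 differed by -1.37 and -1.04.

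**Figure D3:**
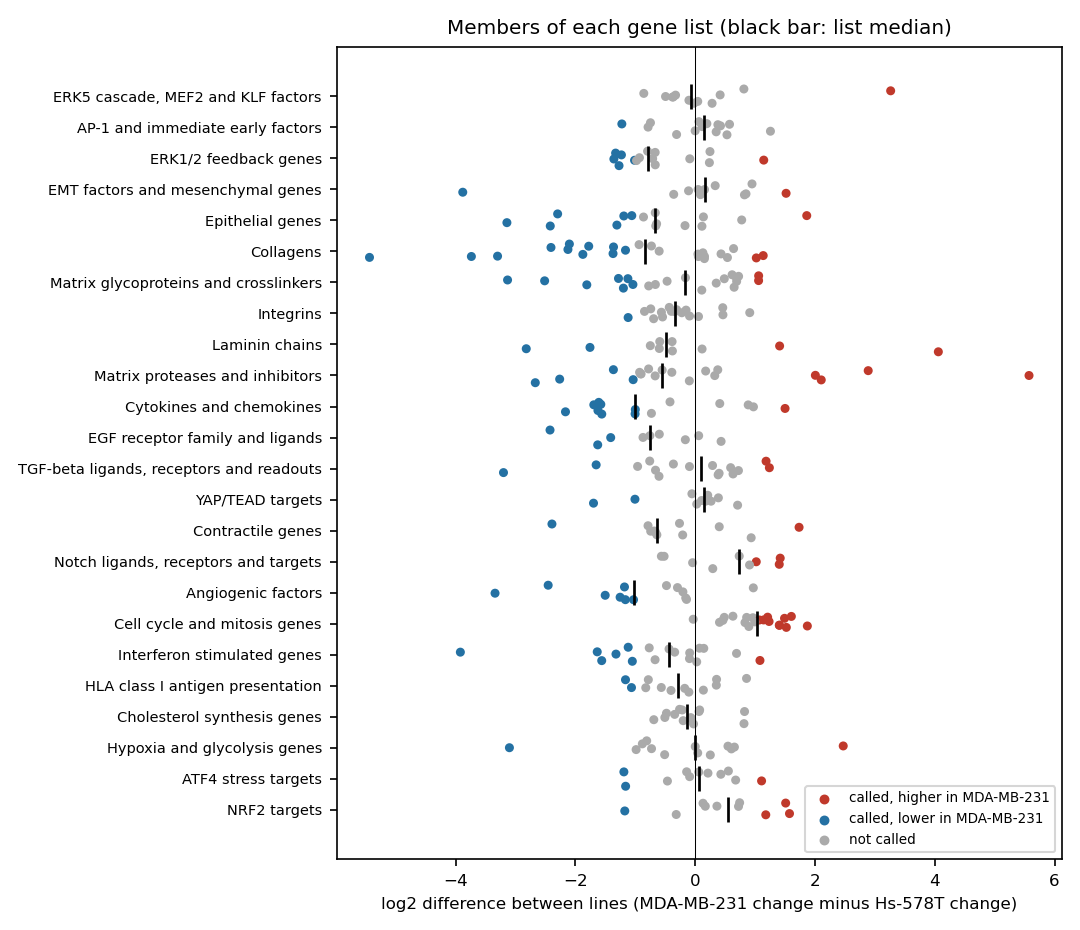
Log2 difference between lines (MDA-MB-231 change minus Hs-578T change) of each tested member of the 24 gene lists, with called members in color and a black bar at each list's median. Collagens, cytokines and angiogenic factors reach far to the left, with medians of -0.84, -1.0 and -1.03, and cell cycle genes lie to the right, with a median of 1.03.

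Of 15 epithelial genes tested, 6 had a lower and 1 a higher difference, with a median of -0.67, and 8 were called lower within MDA-MB-231 and 1 within Hs-578T, beside 6.31% and 1.49% of all genes. KRT7, a simple epithelial keratin, fell from 817 and 855 to 158 and 173 RPKM in MDA-MB-231 and rose from 12.8 and 10.5 to 22.8 and 18.7 RPKM in Hs-578T (difference -3.14, standard error 0.19, adjusted p = 4.9e-07). CLDN4, a tight junction protein whose promoter is printed above, fell 4.53-fold from 97.9 and 99.2 to 21.04 and 22.42 RPKM in MDA-MB-231 and stayed under 0.61 RPKM in Hs-578T (difference -2.42). ESRP2, an epithelial splicing factor, fell 7.24-fold from 5 and 4.86 RPKM (difference -2.30), EPCAM differed by -1.31, ST14 by -1.19 and CDH1, E-cadherin, by -1.06 from only 0.64 and 0.65 RPKM in the parental cells. ESRP1, the paralog of ESRP2, ran the other way at levels of 1.27 RPKM and below (difference 1.86), and did not pass a stricter filter of 1 RPKM in 4 libraries.

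Of 11 mesenchymal genes and EMT factors 1 was called in each direction, beside 5.87% higher and 6.89% lower over all genes, at a median of 0.15. CDH11, a mesenchymal cadherin, fell 22.9-fold in MDA-MB-231 from 53.1 and 53.1 to 2.26 and 2.37 RPKM, with 161 and 196 and then 118 and 160 RPKM in Hs-578T (difference -3.88, standard error 0.20, adjusted p = 1.2e-07). PRRX1, a mesenchymal transcription factor, rose from 0.132 and 0.118 to 0.923 and 1.04 RPKM in MDA-MB-231 against 154 and 165 and then 125 and 138 RPKM in Hs-578T (difference 1.52). VIM, vimentin, rose from 1610 and 1751 to 3418 and 3492 RPKM in MDA-MB-231 and was at 3608 and 3433 and then 3469 and 4067 RPKM in Hs-578T, a difference of 0.95 that was not called. The number of higher calls was 2 without the second MDA-MB-231 or the first Hs-578T parental library and 3 without the second Hs-578T-MEK5DD library or with quantile normalization.

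Of 14 cytokines and chemokines 8 were called lower and 1 higher, beside 6.89% and 5.87% of all genes, with a median of -1.0. Within MDA-MB-231 5 were called higher and 4 lower, beside 7.64% and 6.31% of all genes. Within Hs-578T 5 were called higher and 1 lower, beside 2.9% and 1.49%. Of the differences 10 were negative and 4 positive, among them CXCL1 (0.97), CXCL2 (0.41) and CXCL3 (0.88), not called. IL1B, interleukin-1 beta, was under 0.25 RPKM in MDA-MB-231 and rose from 0.648 and 0.824 to 4.33 and 4.11 RPKM in Hs-578T (difference -2.17). IL6 was called in opposite directions, from 10.3 and 9.93 to 4.77 and 4.47 RPKM in MDA-MB-231 and from 13.7 and 12.5 to 20.97 and 20.35 RPKM in Hs-578T (difference -1.69, standard error 0.19, adjusted p = 3.61e-05). CSF1, the macrophage growth factor, was called lower in both lines, from 172 and 177 to 27.2 and 27.8 RPKM and from 154 and 155 to 65.4 and 81.1 RPKM, and the fall was larger in MDA-MB-231 (difference -1.56). CSF2, TNFSF10 and IL1A differed by -1.63, -1.58 and -1.61. CXCL8, interleukin-8, was called higher in both lines with no called difference (-0.73). IL24 was the higher one, from 5.06 and 4.89 to 16.4 and 18.2 RPKM in MDA-MB-231 and at most 0.114 RPKM in Hs-578T (difference 1.5). With a pseudocount of 1 the lower calls were 5, and without the second MDA-MB-231 parental library 3 were called higher, or 2 without the first Hs-578T-MEK5DD library.

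Of 9 genes of the EGF receptor family and its ligands, 3 had a lower difference and 0 a higher one. At the limma adjusted p alone 5 were lower and 0 higher, beside 18.2% and 21.3% of all genes, and 6 had an unadjusted p under 0.05. EREG fell from 8.14 and 8.42 to 1.19 and 1.08 RPKM, TGFA from 139 and 135 to 52.2 and 46.8 RPKM and AREG from 64.0 and 63.9 to 21.3 and 22.9 RPKM in MDA-MB-231, and none of these 3 ligands exceeded 0.134 RPKM in the parental and MEK5DD libraries of Hs-578T. Their differences of -2.43, -1.63 and -1.41 stood beside a list median of -0.76. That of AREG lost its call with a pseudocount of 0.1 (-1.21) and with limma voom on reads (-1.06). HBEGF, another ligand, was called higher within Hs-578T, from 4.91 and 4.58 to 6.29 and 8.91 RPKM, with 52.9 and 51.5 and then 43.3 and 43.5 RPKM in MDA-MB-231 (difference -0.87, not called). The ERK5-ko libraries of MDA-MB-231 held 49.2 and 50.8 RPKM of EREG and 194 and 202 RPKM of AREG, above the parental level.

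Angiogenic factors had 7 lower and 0 higher differences among 13, beside 6.89% and 5.87% of all genes, at a median of -1.03. At the limma adjusted p alone 8 were lower and 1 higher, beside 18.2% and 21.3% of all genes, and 9 had an unadjusted p under 0.05. Within MDA-MB-231 4 were called lower (6.31% of all genes), and within Hs-578T 3 higher (2.9%) and 1 lower (1.49%). VEGFA, the main endothelial growth factor, fell from 124 and 126 to 40.8 and 50.5 RPKM in MDA-MB-231, with 108 and 109 and then 87.8 and 91.5 RPKM in Hs-578T (difference -1.18). PDGFRB, the receptor of mural cells, fell from 14.3 and 14.9 to 2.15 and 1.76 RPKM against 192 and 216 and then 158 and 210 RPKM in Hs-578T (difference -2.46). PDGFB and PDGFA differed by -1.5 and -1.26, FGF2, listed at 0 in MDA-MB-231, by -1.17, and PGF by -1.03. ANGPTL2 is the seventh. A pseudocount of 1, quantile normalization, or leaving out the second parental or first MEK5DD library of MDA-MB-231 or the first Hs-578T parental library gave 1 higher call.

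Cell cycle and mitosis genes had differences of mostly the same sign. Of 20 tested, 10 were called higher and 0 lower, beside 5.87% and 6.89% of all genes. The adjusted p was passed in the higher direction by 16 (21.3% of all genes did), and 19 of 20 differences were positive, with a median of 1.03. The median change was 0.30 in MDA-MB-231, against -0.67 in Hs-578T. Within the lines 2 were called higher in MDA-MB-231, beside 7.64% of all genes, and 3 lower in Hs-578T, beside 1.49%. AURKB, a mitotic kinase, rose from 71.0 and 78.1 to 138 and 147 RPKM in MDA-MB-231 and was at 36.2 and 29.3 and then 14.7 and 19.0 RPKM in Hs-578T (difference 1.87, standard error 0.19, adjusted p = 2.11e-05). CDC20, the activator of the anaphase ubiquitin ligase, rose from 154 and 164 to 276 and 262 RPKM in MDA-MB-231 and was at 127 and 96.6 and then 53.9 and 69.8 RPKM in Hs-578T (difference 1.60). AURKA differed by 1.52, with 87.1 and 85.9 and then 129 and 128 RPKM in MDA-MB-231 and 32.8 and 32.5 and then 14.7 and 18.9 RPKM in Hs-578T. MCM2, a subunit of the replicative helicase, was 73.5 and 76.4 and then 89.6 and 89.7 RPKM in MDA-MB-231 and fell from 42.8 and 37.2 to 15.43 and 18.01 RPKM in Hs-578T (difference 1.49).

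These 4 genes are those with the largest called differences of the list. Within the lines, AURKB and CDC20 were called higher in MDA-MB-231, MCM2 was called lower in Hs-578T, and AURKA was called in neither. PLK1 (1.41), CCNB1 (1.40), TOP2A (1.23), MCM5 (1.21), CCNB2 (1.14) and CCNE2 (1.07) were the other members with a called difference. MKI67, the proliferation marker Ki-67, was at 59.2 and 57.0 and then 79.8 and 74.3 RPKM in MDA-MB-231 and at 4.97 and 11.2 and then 3.43 and 7.01 RPKM in Hs-578T, where the groups overlapped (difference 0.96, adjusted p = 0.111). Only MCM6 had a negative difference (-0.03). The ERK5-ko libraries stood the other way round, with 44.1 and 50.6 RPKM of AURKB in MDA-MB-231, below the parental libraries, and 51.7 and 49.6 RPKM in Hs-578T, above them. The confluence at harvest was the same for all samples by the labels, and growth rates are not given in the sources used here.

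**Figure D4:**
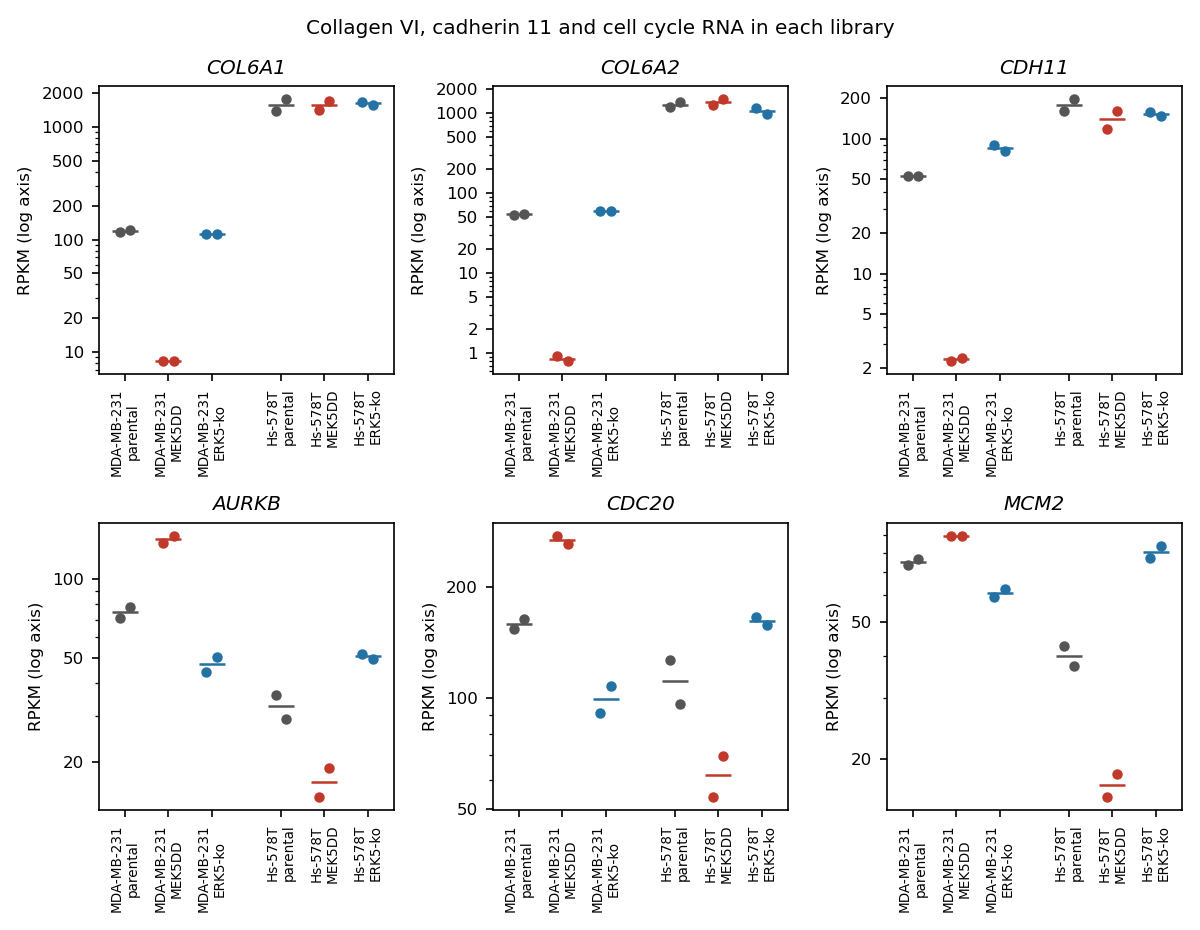
RPKM (log axes, 1 scale per panel) of COL6A1, COL6A2, CDH11, AURKB, CDC20 and MCM2 in all 12 libraries, with 1 point per library and a bar at each group mean of 2. COL6A1, COL6A2 and CDH11 are lowest in the MDA-MB-231-MEK5DD libraries, and AURKB, CDC20 and MCM2 are higher in MDA-MB-231-MEK5DD and lower in Hs-578T-MEK5DD than in the parental cells.

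Of 17 interferon stimulated genes 6 had a lower difference and 1 a higher one, at a median of -0.44, and 7 were called lower within MDA-MB-231 and 1 within Hs-578T, beside 6.31% and 1.49% of all genes. IFI27 fell from 77.5 and 75.6 to 12.6 and 10.1 RPKM in MDA-MB-231 and rose from 2.03 and 1.19 to 4.79 and 3.81 RPKM in Hs-578T (difference -3.92, standard error 0.29, adjusted p = 1.87e-06). The antiviral genes IFIT3, IFIT2 and IFIT1 differed by -1.64, -1.56 and -1.32 and lie within LIPA on the opposite strand, and ISG15 and IFIH1 differed by -1.12 and -1.05. MX1 and OAS1 were called lower in MDA-MB-231 (by log2 changes of -1.57 and -2.02) without a called difference (-0.67 and -0.77), beside changes of -0.90 and -1.25 in Hs-578T. IRF7, a factor that induces interferon genes, was the higher one (1.08). Of 12 genes of HLA class I presentation 2 were called lower, and the median was -0.29. HLA-B went from 793 and 821 to 316 and 325 RPKM in MDA-MB-231, with 322 and 265 and then 281 and 241 RPKM in Hs-578T (difference -1.17). Reads of the HLA genes can be split among near-identical copies, which makes the value uncertain. Without the first Hs-578T-MEK5DD library 1 gene was called lower, and without the second Hs-578T-MEK5DD library 1 of these genes was called higher.

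Of 9 Notch genes 3 were called higher and 0 lower, beside 5.87% and 6.89% of all genes, at a median of 0.73. At the limma adjusted p alone 5 were higher and 1 lower, beside 21.3% and 18.2% of all genes, and 6 had an unadjusted p under 0.05. JAG1, a Notch ligand, was 42.7 and 42.1 and then 47.2 and 44.5 RPKM in MDA-MB-231 and fell from 117 and 107 to 34.32 and 59.98 RPKM in Hs-578T (difference 1.40). HEY2, a target, fell from 3.36 and 3.65 to 0.924 and 1.31 RPKM in Hs-578T and was under 0.1 RPKM in MDA-MB-231 (difference 1.42). NOTCH3 differed by 1.02 and was not called without the second library of MDA-MB-231 parental (0.96), of MDA-MB-231-MEK5DD (0.96) or of Hs-578T parental (0.81), or without the first of Hs-578T-MEK5DD (0.87).

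TGF-beta genes had 2 called in each direction of 16, at a median of 0.10 that was -0.02 with reads in place of RPKM. LTBP3, which holds latent TGF-beta in the matrix, fell 9.98-fold in MDA-MB-231 from 16.5 and 16.7 to 1.61 and 1.72 RPKM and overlapped between groups in Hs-578T at 62.6 to 86.8 RPKM (difference -3.20). INHBA, the activin A subunit, rose from 38.5 and 42.6 to 79.6 and 104 RPKM in Hs-578T and was under 0.7 RPKM in MDA-MB-231 (difference -1.65). ID1 and ID2, targets of BMP signaling, differed by 1.18 and 1.24. ID1 was not called without the first Hs-578T parental library (0.91), and ID2 not without the second MDA-MB-231-MEK5DD (0.95) or the second Hs-578T-MEK5DD library (0.98), which leaves 1 higher call in each case.

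Among YAP/TEAD targets 2 of 10 were lower, beside 6.89% of all genes. The median of the list was 0.14 and turned to -0.10 without the first Hs-578T-MEK5DD library. F3, tissue factor, whose promoter is printed above, fell from 339 and 334 to 147 and 148 RPKM in MDA-MB-231 and was at 45.3 and 44.3 and then 59.1 and 69.2 RPKM in Hs-578T (difference -1.70). ANKRD1 differed by -1.01 and fell short of the size asked for without the first MDA-MB-231 parental (-0.98), second MDA-MB-231-MEK5DD (-0.97), second Hs-578T parental (-0.86) or second Hs-578T-MEK5DD library (-0.95), which leaves 1 lower call. Contractile genes had 1 of 11 in each direction, beside 5.87% higher and 6.89% lower over all genes, at a median of -0.64. CNN1, calponin, rose from 1.78 and 1.01 to 8.1 and 7.03 RPKM in Hs-578T (difference -2.39), and ACTA2, smooth muscle actin, whose model overlaps FAS and STAMBPL1 on the opposite strand, fell from 157 and 124 to 52.5 and 60.6 RPKM in Hs-578T (difference 1.73). Without the second MDA-MB-231 parental or second Hs-578T-MEK5DD library 2 contractile genes were higher, and without the second Hs-578T parental or first Hs-578T-MEK5DD library 2 were lower.

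The metabolic and stress lists differed in their number of calls, from 0 of 14 cholesterol synthesis genes to 4 of 10 NRF2 targets. CA9, a carbonic anhydrase induced by hypoxia, was at least 39.1-fold lower in MDA-MB-231-MEK5DD than the 4.55 and 4.58 RPKM of the parental cells and was at most 0.22 RPKM in Hs-578T (difference -3.10), whereas ADM, adrenomedullin, rose from 8.76 and 9.16 to 53.8 and 55.0 RPKM in MDA-MB-231 and overlapped between groups in Hs-578T (difference 2.47). They are the 2 called of 13 hypoxia and glycolysis genes (median 0.00), of which 4 were lower without the first Hs-578T parental library, 3 without the second Hs-578T-MEK5DD library, and 2 without the first parental or second MEK5DD library of MDA-MB-231. NRF2 targets had 3 higher and 1 lower of 10 at a median of 0.54. OSGIN1, HMOX1 and AKR1B10 differed by 1.57, 1.51 and 1.18, and TXNRD1 by -1.18. HMOX1, heme oxygenase, rose from 25.5 and 26.4 to 50.8 and 55.9 RPKM in MDA-MB-231. AKR1B10 was under 0.32 RPKM in MDA-MB-231 and was not called without the second parental (0.92) or first MEK5DD library (0.98) of MDA-MB-231 or the first parental (0.98) or second MEK5DD library (0.92) of Hs-578T. Of 11 ATF4 targets (median 0.06, and -0.03 to -0.10 without the first MDA-MB-231 parental, second MDA-MB-231-MEK5DD, first Hs-578T parental or first Hs-578T-MEK5DD library), SLC7A11, the cystine transporter, was higher (1.11), but not without the second Hs-578T parental or first Hs-578T-MEK5DD library (0.85 in each), and DDIT4 and PHGDH were lower (-1.19 and -1.16). PHGDH was not called with quantile normalization (-0.95). Of 14 cholesterol synthesis genes 0 were called in either direction, also with limma voom, at a median of -0.14. The absence of calls did not hold without the second Hs-578T-MEK5DD library. At the limma adjusted p alone 2 were higher and 4 lower, beside 21.3% and 18.2% of all genes, and 6 had an unadjusted p under 0.05.

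Position on the chromosomes was examined after the values had been seen and is given as a description. Of 194 genes tested on chromosome 18, 45 (23.2%) had a lower difference, against 6.89% of all genes, and 10 (5.15%) a higher one. The median log2 change of its genes was -0.39 in MDA-MB-231, against 0.22 in Hs-578T, for a median difference of -0.66 beside 0.05 over all genes, and 84% of its genes had a difference below 0, against 46.1% of all genes. The quartiles of the differences were -0.99 and -0.23. The shift was not even along the chromosome. In windows of 20 Mb (GRCh38), the 50 genes that start before 20 Mb had a median change of 0.06 in MDA-MB-231, the 50 between 20 and 40 Mb -0.31, the 55 between 40 and 60 Mb -0.74 and the 35 between 60 and 80 Mb -0.55, whereas in Hs-578T the same windows had 0.28, 0.16, 0.23 and 0.12. Of the 45 lower differences 25 fell between 40 and 60 Mb. In the ERK5-ko cells the median of chromosome 18 was -0.03 in MDA-MB-231, against 0.15 in Hs-578T against the parental cells.

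Chromosome 16 stood apart in the other direction. Its 617 genes had a median change of 0.09 in MDA-MB-231, against -0.30 in Hs-578T, where 13.6% were above 0 against 37.6% of all genes, and 72 (11.7%) had a higher difference. Of these, 33 were among the 79 genes beyond 80 Mb, whose median change was 0.56 in MDA-MB-231. CDH11, ESRP2 and OSGIN1 are on this chromosome. Chromosome 14 had 45 higher and 13 lower differences of 453, with a median change in MDA-MB-231 of 0.73 for the 53 genes beyond 100 Mb and of -0.03 for the 129 between 20 and 40 Mb. Chromosome 7 had a median difference of -0.30, and its 69 genes between 60 and 80 Mb had a median change of -0.53 in MDA-MB-231, in which 70.3% of the chromosome's 637 genes lay below 0. On chromosome 21, which carries the collagen VI genes, 17 of 132 (12.9%) were lower, with a median difference of -0.15. On the X chromosome 51 of 480 genes (10.6%) had a higher and 60 (12.5%) a lower difference. Over all chromosomes 119 pairs of neighbouring tested genes were both called higher, 161 both lower and 65 in opposite directions, of 13713 pairs. Of all genes 5.87% were called higher and 6.89% lower, and the counts for pairs taken without regard to position were not computed. The medians of chromosomes 16 and 18 kept their sign with the other pseudocounts, median-ratio or quantile scaling, reads in place of RPKM, and without any of the 8 libraries, at -0.58 to -0.76 for chromosome 18 and 0.34 to 0.46 for chromosome 16. Whether copies of these regions differ between parental and MEK5DD cells was not tested.

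**Figure D5:**
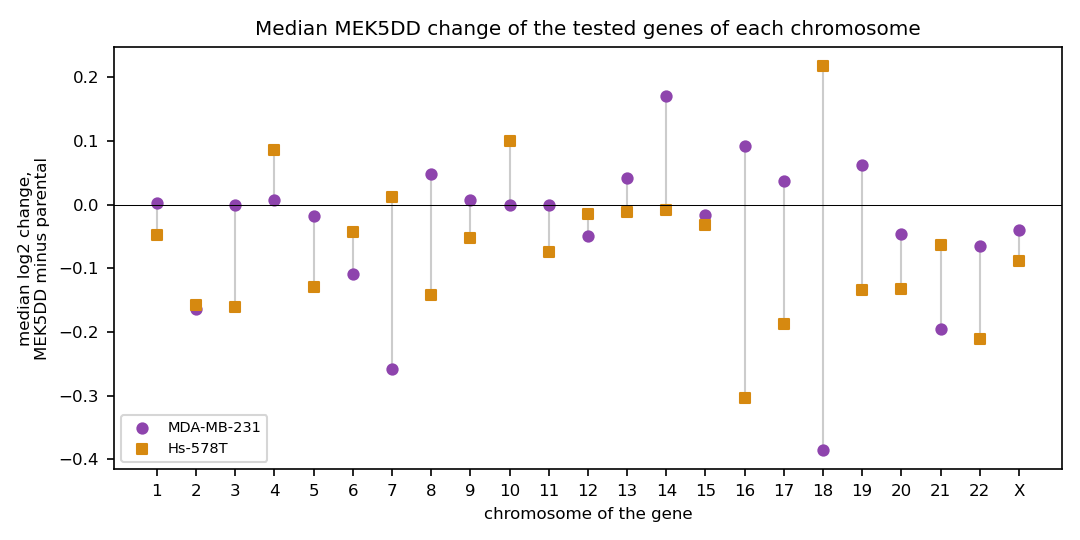
Median log2 change (MEK5DD minus parental) of the tested genes of each chromosome in MDA-MB-231 (circles) and Hs-578T (squares), joined by a grey line. Chromosome 18 has the widest gap, at -0.39 and 0.22, and chromosome 16 the widest in the other direction, at 0.09 and -0.30.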

How the data were processed

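RNA of 12 libraries was sequenced from poly(A) RNA with a stranded kit. The authors deposited RPKM values per gene on GRCh38, without counts; the submitters' processing notes name bcl2fastq, Trimmomatic 0.32, TopHat2 2.1.1, R 3.3.1 and DESeq2 1.12.4. Use of strand in counting is not given in the sources used here. Whole reads were recovered for all 32152 genes (0 of 500 control genes with totals set off), and 92.05% to 94.5% of a library's reads lay on listed genes.

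Protein-coding genes at 0.5 RPKM or more in at least 2 libraries were tested on log2(RPKM + 0.5) with limma 3.58.1 (R 4.3.3), with 6 group means, 6 residual degrees of freedom and Benjamini-Hochberg adjustment, after the script was tested on simulated data. Folds are ratios of mean RPKM, with a floor of 3 reads in total per library. Named genes were MAP2K5, MAPK7, the 10 largest differences each way, genes called in both lines, and up to 4 called members of each list. The 10 each way were taken under the filters of call, level and overlap given above. Other list members were named after their values were seen. Members and lists were chosen with earlier results of these data known.

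Deviations of libraries with the same replicate number correlated at 0.107 to 0.541 between groups of the same line (6 comparisons), so the numbers were taken as pairs in an alternative fit. Of 101 named genes, 26 overlap another listed gene. Promoters came from RefSeq tables (GRCh38.p14). Alternatives changed the pseudocount, filter, scaling, fold, comparison group, samples and model. Some named genes are not reported here.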

Additional observations from a re-analysis of the deposited data

Results flagged for a closer look

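The MEK5DD change differed between the lines, by the limma test of the difference itself, in 89 of the 101 named genes, most of which were chosen by that call, and in 12.8% of all genes. The log2 differences (MDA-MB-231 minus Hs-578T) of 86 follow. Above 3 were MAP2K5 (3.26), SSX1 (6.59), ARHGAP30 (6.47), MMP1 (5.57), DAPK1 (4.17), CNTN1 (4.07), LAMA4 (4.06), TMEM108 (4.01), NCALD (3.98), HBE1 (3.92) and ARHGDIB (3.81). Smaller higher differences were those of SERPINE2 (2.89), ADM (2.47), AURKB (1.87), ESRP1 (1.86), ACTA2 (1.73), CDC20 (1.60), OSGIN1 (1.57), AURKA and PRRX1 (1.52 each), HMOX1 (1.51), MCM2 (1.49), HEY2 (1.42), LAMB3 (1.41), JAG1 (1.40), ID2 (1.24), ID1 and AKR1B10 (1.18 each), SLC7A11 (1.11) and NOTCH3 (1.02).

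Below -3 were NGFR (-6.66), SLC12A7 (-5.86), COL6A2 (-5.44), LBH (-5.25), ULK2 (-5.17), NUP210 (-4.95), CEMIP (-4.94), TRIM29 (-4.88), RARRES2 (-4.79), KRT81 (-4.13), PSG5 (-3.95), IFI27 (-3.92), CDH11 (-3.88), COL6A1 (-3.74), ANGPTL2 (-3.34), COL1A2 (-3.30), LTBP3 (-3.20), KRT7 (-3.14), LOXL4 (-3.13) and CA9 (-3.10). Between -3 and -2 were MATN2 (-2.86), LAMA5 (-2.82), TIMP3 (-2.67), THBS2 (-2.51), PDGFRB (-2.46), EREG (-2.43), CLDN4 (-2.42), COL7A1 (-2.41), CNN1 (-2.39), ESRP2 (-2.30) and IL1B (-2.17). The rest were EFEMP2 (-1.81), F3 (-1.70), IL6 (-1.69), INHBA (-1.65), IFIT3 (-1.64), CSF2 and TGFA (-1.63 each), IL1A (-1.61), IFIT2 (-1.56), PDGFB (-1.50), AREG (-1.41), DUSP4 (-1.36), DUSP6 (-1.33), IFIT1 (-1.32), LUM (-1.28), SPRY1 (-1.27), PDGFA (-1.26), EGR2 and DUSP5 (-1.23 each), DDIT4 (-1.19), TXNRD1 (-1.18), HLA-B (-1.17), PHGDH (-1.16), ITGA2 (-1.12) and ANKRD1 (-1.01).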

How the results depend on the processing

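Of 1953 values of called named genes over 22 alternatives, 1901 kept direction and call, 49 kept direction only (15 with ERK5-ko as comparison, 20 in 9 genes without a library) and 3 turned, for causes not tested. Against ERK5-ko libraries the differences were ITGA2 0.19, ANKRD1 0.60, PHGDH 0.03, MORC4 0.68 and CD68 -0.06, and counts 2096 higher and 1824 lower, with 2170 higher in MDA-MB-231 and 1389 and 800 in Hs-578T. Among uncalled genes, XAGE2 was 1.05 and SLAMF7 -0.57 with a pseudocount of 0.1, XAGE2 1.65, SLAMF7 -2.56 and KDR -0.13 with limma voom on reads, and IL16 -0.41 with a pseudocount of 1, -0.14 with median-ratio and -0.10 with quantile scaling. Without a library XAGE2 ranged from -0.34 to 0.22, IL16 from -0.08 to 0.13 and MAPK7 from -0.12 to 0.07. Hs-578T lower calls were 411 and 132 with pseudocounts of 0.1 and 1, and 615 higher and 363 lower with voom. With no fold, calls were 2931 and 2507 for the difference, 2410 and 3263 in MDA-MB-231 and 884 and 2329 in Hs-578T. With the fold rules of the difference and of the lines exchanged, higher calls were 2098, 372 and 129. Median-ratio scaling gave 537 and 170 in Hs-578T. Leaving out each library gave 781 to 997 higher and 934 to 1025 lower differences, 995 to 1060 and 829 to 900 calls in MDA-MB-231 and 388 to 574 and 204 to 279 in Hs-578T. With the replicate block, counts were 808 and 950, 1056 and 867, and 417 and 204; it moved no count by over 1.5 times. With 2 libraries a group, small changes of low genes are limited by depth.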
